A study of Homo sapiens with 12 samples.

Results

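The genes that write, copy and erase DNA methylation were followed through CDK4/6 inhibition in ZR-75-1 cells with and without *RB1*. They comprised 9 of the 60612 gene rows of the count table and were chosen by name. The methyltransferases were *DNMT1*, *DNMT3A* and *DNMT3B*, and the maintenance cofactors were *UHRF1* and *HELLS*. The others were *UHRF2*, a paralogue of *UHRF1*, and the dioxygenases *TET1*, *TET2* and *TET3*. ZR-75-1 is a human breast cancer line that expresses the oestrogen receptor. The cells had received Cas9 with a control guide (sgControl) or with a guide against *RB1* (RB1 knockout), and each genotype was given DMSO or 500 nM abemaciclib, an inhibitor of CDK4 and CDK6, for 5 days. RNA was sequenced from 3 replicates of each of the 4 groups, 12 libraries in all. The study's methods describe knockout lines grown from single sorted cells. The number of clones behind these libraries is not given in the sources used here, so that loss of *RB1* and differences between clones cannot be told apart. Replicates are labelled only by number, and p-values measure the spread between these libraries.

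In mammalian cells, methyl groups sit mainly on the cytosine of CpG dinucleotides. DNMT3A and DNMT3B place them on unmethylated DNA. DNMT1 copies the pattern onto the new strand after replication: UHRF1 recognizes the half-methylated site and modifies histone H3 with ubiquitin, which brings in DNMT1, and the chromatin remodeller HELLS opens DNA that is packed in nucleosomes. UHRF2 is a paralogue of UHRF1. TET enzymes oxidize 5-methylcytosine, and the oxidized base is then diluted by replication or cut out by excision repair. CDK4 and CDK6 phosphorylate the Rb protein, and unphosphorylated Rb binds E2F transcription factors and represses genes needed for S phase, many of which carry E2F sites in their promoters.

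The promoters of the 9 genes were read from RefSeq for exact matches on both strands to the E2F-type words TTTCGCGC, TTTGGCGC and TTTCCCGC. A promoter window ran from 250 bases before to 50 bases after a transcript start on GRCh38.p14, and the 9 genes had 20 windows. 3 genes, *DNMT1*, *UHRF1* and *HELLS*, held such a word in a window, and 6 did not. All windows of *DNMT1*, *UHRF1*, *HELLS* and *DNMT3B* lay inside the GENCODE 44 span of the gene. The only window of *DNMT3B* ran from 32779602 to 32779901 on chromosome 20. The bases at the outermost GENCODE 44 start of these genes were not searched. Those starts were 10231286 for *DNMT1* (minus strand), 4903080 for *UHRF1*, 94545329 for *HELLS* and 32762385 for *DNMT3B*. Of all 27305 genes with a window, 3.3% held at least 1 of these words, as did 2.74% of 35116 windows. The matching windows are printed from 170 bases before the start to 50 bases into the first exon, on the strand of the gene, with the words or their reverse complements in capitals.
DNMT1, chr19:10194904-10195123, minus strand: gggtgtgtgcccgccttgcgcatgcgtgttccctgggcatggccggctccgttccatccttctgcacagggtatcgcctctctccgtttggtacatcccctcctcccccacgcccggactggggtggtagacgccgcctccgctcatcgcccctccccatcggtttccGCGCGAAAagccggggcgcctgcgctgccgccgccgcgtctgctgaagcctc
UHRF1, window 1, chr19:4909331-4909550, plus strand: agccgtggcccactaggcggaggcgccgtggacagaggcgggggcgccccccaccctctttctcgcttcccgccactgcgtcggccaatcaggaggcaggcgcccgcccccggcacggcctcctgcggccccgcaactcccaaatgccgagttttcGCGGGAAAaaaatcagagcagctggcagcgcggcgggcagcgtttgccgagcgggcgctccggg
UHRF1, window 2, chr19:4909974-4910193, plus strand: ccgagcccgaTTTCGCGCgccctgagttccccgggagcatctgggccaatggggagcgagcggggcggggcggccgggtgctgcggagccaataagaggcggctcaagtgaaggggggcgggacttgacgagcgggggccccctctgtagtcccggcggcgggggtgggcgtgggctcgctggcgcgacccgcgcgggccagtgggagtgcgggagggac
HELLS, chr10:94545618-94545837, plus strand: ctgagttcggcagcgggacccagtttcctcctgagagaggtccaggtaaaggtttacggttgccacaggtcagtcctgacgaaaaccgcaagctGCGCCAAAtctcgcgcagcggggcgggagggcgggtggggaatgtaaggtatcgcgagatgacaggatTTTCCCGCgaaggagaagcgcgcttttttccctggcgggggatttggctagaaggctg
With the first transcribed base as 0, the *DNMT1* word lay from -2 to 5, across the start. The first *UHRF1* window held its word from -14 to -7, and the second from -160 to -153. *HELLS* held 1 word from -76 to -69 and another from -8 to -1, ending at the base before the start. The shorter words TTTGAA and TTCGAA, which resemble the cell cycle homology region of genes expressed in G2 and mitosis, were searched in the same windows. TTTGAA was present for *DNMT3A* and *TET2*, and in 15.2% of all windows. TTCGAA was in 1.45% of all windows and in none of these. A match is a string of letters in the window, and binding was not measured here.

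The libraries held between 39907318 and 81636393 counts. *RB1* itself was read first as a check of the genotype labels. Its normalized counts (counts divided by the library's size factor) in DMSO were 4154, 4825 and 4752 for sgControl and 39.6, 49.6 and 51.2 for the knockout, with 2252 to 2489 and 44.2 to 63.5 in abemaciclib, so that every library followed its genotype label. The drug labels of the knockout libraries cannot be checked this way, as their ranges overlapped. All 7 luminal markers were abundant in each library (*ESR1* from 6157 to 18712 normalized counts). Of 7 markers of other cell types, *KRT5*, *KRT14*, *TP63*, *VIM*, *PTPRC* and *PECAM1* reached at most 6 raw counts in any library. *COL1A1* lay between 1879 and 3031 normalized counts. The sum of the 7 ran from 2105 to 2395 in sgControl DMSO, 2793 to 3041 in sgControl abemaciclib, 1883 to 2059 in knockout DMSO and 2573 to 2674 in knockout abemaciclib. Mitochondrial genes took 2.82 to 3.99% of counts in sgControl DMSO, 7.22 to 8.53% in sgControl abemaciclib, 3.78 to 4.13% in knockout DMSO and 5.44 to 7.39% in knockout abemaciclib. Their part in the results was not tested. Replicate 1 of sgControl DMSO stood apart from replicates 2 and 3 of its group, and it was the lowest of the 3 for every one of the 9 genes except *TET1*.

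In sgControl cells, 8 of the 9 genes fell with abemaciclib and 1, *DNMT3A*, rose slightly (DESeq2 Wald test, Benjamini-Hochberg adjusted p under 0.05). Over all 22723 genes tested, 24.8% fell and 25% rose. The median log2 fold change of the 9 was -1.53, beside 0.01 over all genes. The largest falls were those of the maintenance genes *HELLS* and *UHRF1*, followed by *TET1* and *DNMT1*, which were nearly equal. RNA of the proliferation marker *MKI67* differed sharply between these groups. It had 21670, 33374 and 29062 normalized counts in DMSO and 395.5, 441 and 272.2 in abemaciclib. Proliferation itself was not measured in these libraries. In bulk RNA, fewer cells of a kind, such as cells in S phase, and less RNA per cell cannot be told apart.

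*DNMT1*, the maintenance methyltransferase, measured 6147, 6848 and 6948 normalized counts in DMSO and 2021, 2215 and 1950 in abemaciclib. The drug-treated libraries lay far under the untreated ones, and the transcript fell 3.22-fold (log2 fold change -1.69, SE 0.07, adjusted p = 1.46e-132). *UHRF1*, which recognizes half-methylated DNA, went from 4175, 5828 and 6942 to 972.1, 1200 and 956.7. The DMSO libraries spread widely, yet the lowest of them was still more than the highest treated library, and the fall was 5.42-fold (-2.44, SE 0.15, adjusted p = 2.30e-55). *HELLS*, the remodeller, had the largest fall of the 9, from 1407, 1491 and 1625 to 225.2, 190.4 and 173.5. This was 7.72-fold (-2.95, SE 0.10, adjusted p = 1.15e-180), leaving 12.9% of the level in DMSO.

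*UHRF2* moved less than its paralogue. It measured 1236, 1280 and 1473 in DMSO and 742.5, 783.7 and 853.6 in abemaciclib, a 1.68-fold fall with no overlap (-0.75, SE 0.08, adjusted p = 1.86e-18). The count of *UHRF1* was 4.21 ± 0.73 times (SD, n = 3) that of *UHRF2* within a library in DMSO, and 1.32 ± 0.205 times in abemaciclib.

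The de novo enzymes went in opposite directions. *DNMT3B* measured 450.6, 545.6 and 578.9 in DMSO and 163.8, 203.7 and 176.2 in abemaciclib. The groups were well apart, and the fall was 2.90-fold (-1.53, SE 0.12, adjusted p = 2.15e-35). *DNMT3A* measured 538.1, 759.7 and 820.2 in DMSO and 853.5, 899.8 and 886.2 in abemaciclib. The treated libraries were all higher, by a narrow margin, and the change was 1.24-fold (0.31, SE 0.12, adjusted p = 0.0243). That call was not stable. Without replicate 1 of sgControl DMSO the log2 fold change of *DNMT3A* was 0.15 (adjusted p = 0.11), without replicate 2 or replicate 3 of sgControl abemaciclib the adjusted p was 0.0755 or 0.063, and with total-count size factors it was 0.359, the highest of 19 alternatives (0.000882 to 0.359). Total-count scaling also moved the median of all genes to -0.12 and gave 4532 genes higher and 6779 lower, in place of 5675 and 5630, with *DNMT3A* at 0.17 on that scale.

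The *TET* genes, which encode the erasers, also fell. *TET3* measured 1772, 2560 and 2542 in DMSO and 1284, 1344 and 1158 in abemaciclib, a 1.82-fold fall without overlap (-0.86, SE 0.12, adjusted p = 2.37e-11). *TET2* measured 804.3, 1399 and 1485 in DMSO and 712.3, 806.8 and 733.8 in abemaciclib. Here 1 DMSO library, replicate 1, lay inside the treated range. The fall of *TET2* was 1.64-fold (-0.71, SE 0.17, adjusted p = 5.99e-05), and without that library it was -0.94 on the log2 scale (adjusted p = 5.19e-24). *TET1* was barely expressed, with 15, 22 and 21 raw counts in DMSO and 8, 4 and 3 in abemaciclib. Its fall passed the threshold (-1.70, SE 0.51, adjusted p = 0.00213), and without replicate 1 of sgControl abemaciclib the log2 fold change of *TET1* was -2.32. The summed counts, 15 against 58, gave a depth-corrected ratio of 0.308 with a 95% interval from 0.162 to 0.55, which covers counting error only.

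**Figure D1:**
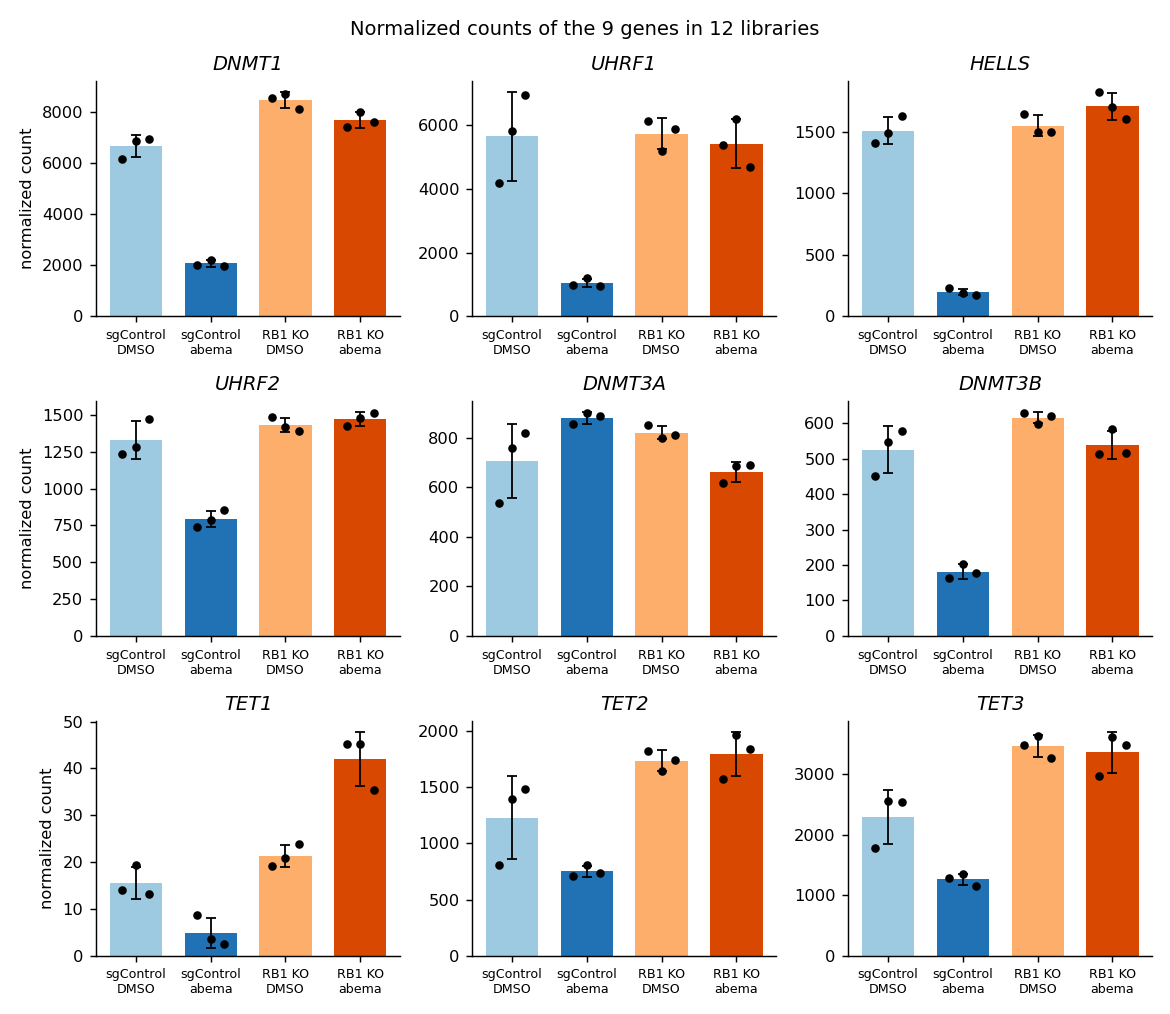
Normalized counts (vertical axis) of each gene in sgControl and RB1-knockout (RB1 KO) cells in DMSO or abemaciclib (abema). Points are libraries, bars are means and error bars are SD (n = 3). The sgControl abemaciclib group is the lowest of the 4 for every gene but *DNMT3A*, and *TET1* is highest in knockout cells in abemaciclib.

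In RB1-knockout cells the same dose and time left most of these genes near their DMSO level. Only *TET1* of the 9 passed the threshold, upwards, beside 14.9% of 18546 genes higher and 15.1% lower. The median log2 fold change of the 9 was -0.04, beside 0.02 over all genes. *MKI67* ran from 32861 to 38708 normalized counts in DMSO and from 26768 to 32037 in abemaciclib in these cells (log2 fold change -0.28, SE 0.20, adjusted p = 0.309).

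*DNMT1* measured 8540, 8706 and 8098 in DMSO and 7415, 8008 and 7596 in abemaciclib. These groups did not overlap, but the difference was small (-0.14, 95% interval -0.27 to -0.01, adjusted p = 0.106). *DNMT1* passed the threshold when only these 2 groups were fitted (adjusted p = 0.00423; 0.00423 to 0.302 over 19 alternatives). *UHRF1* measured 6133, 5183 and 5891, then 5380, 6211 and 4682, with full overlap and an interval from -0.38 to 0.22. *HELLS* measured 1645, 1496 and 1497, then 1820, 1697 and 1600, and its interval ran from -0.03 to 0.31. The falls that sgControl cells showed for these 3 genes lie outside all 3 intervals.

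*UHRF2* ranged from 1390 to 1484 in DMSO and from 1424 to 1516 in abemaciclib, and its interval was -0.12 to 0.20. *DNMT3B* measured 597.2 to 628.5 and then 514.1 to 583.3. Its groups were separate, but the change did not pass (-0.19, adjusted p = 0.2). *DNMT3A* measured 849.8, 798.8 and 811.7 in DMSO and 616.1, 684.4 and 688.9 in abemaciclib, lower in all 3 treated libraries. Its adjusted p of 0.0519 was just outside the threshold (-0.31, SE 0.13), and ranged from 0.000528 to 0.18 over 19 alternatives, with 0.0331 when the replicate number was a block.

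*TET2* (1642 to 1823, then 1576 to 1964) and *TET3* (3270 to 3630, then 2974 to 3617) overlapped between DMSO and abemaciclib, with intervals of -0.28 to 0.37 and -0.29 to 0.20. *TET1* had 14, 19 and 21 raw counts in DMSO and 40, 43 and 35 in abemaciclib, the reverse of its direction in sgControl cells. All treated libraries were higher, by 1.96-fold (0.97, SE 0.38, adjusted p = 0.0348). The summed counts, 118 against 54, gave a ratio of 1.95 (95% interval 1.4 to 2.74). The call of *TET1* was lost when any 1 of 5 of the 6 knockout libraries was left out (all but replicate 3 in abemaciclib; adjusted p 0.0672 to 0.133) and with the replicate number as a block (0.0714), and the adjusted p ranged from 0.0194 to 0.133 over 19 alternatives.

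**Figure D2:**
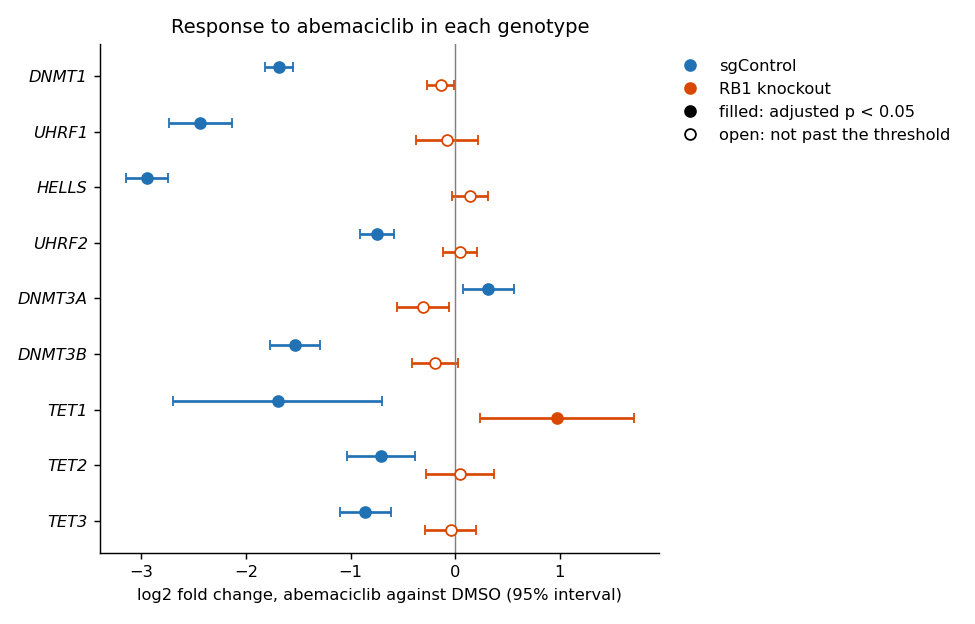
Log2 fold change of abemaciclib against DMSO (horizontal axis) for each gene in sgControl cells (blue) and RB1-knockout cells (orange), with 95% intervals from the DESeq2 fit. Filled points passed the threshold. The sgControl points reach -2.95 for *HELLS*, whereas knockout points lie between -0.31 and 0.97.

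An interaction term compared the response of knockout cells with that of sgControl cells. It passed for all 9 genes, with 8 less reduced or more raised by the drug in knockout cells and 1, *DNMT3A*, the other way, beside 21.1% of 20932 genes higher and 20.3% lower. The interaction was 3.09 for *HELLS* (SE 0.13, adjusted p = 3.76e-114), 2.36 for *UHRF1* (SE 0.22) and 1.55 for *DNMT1* (SE 0.10). It was 1.34 for *DNMT3B*, 0.79 for *UHRF2*, 0.76 for *TET2* and 0.82 for *TET3*, with SE between 0.12 and 0.23. *TET1* had the widest error (2.67, SE 0.63, adjusted p = 0.000101), and its term was 3.29 without replicate 1 of sgControl abemaciclib. The term for *DNMT3A* was -0.62 (SE 0.18, adjusted p = 0.00162). With total-count size factors it was -0.47 and lost its call (adjusted p = 0.061; 2.76e-05 to 0.061 over 18 alternatives). That scaling moved the median of all genes to 0.16 for this term, with 5467 genes higher and 3098 lower in place of 4417 and 4251.

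The genotypes were also compared directly. In DMSO, 3 of the 9 genes were higher in knockout cells and none was lower, beside 19.2% of 16755 genes higher and 18.2% lower. *TET3* was 1.51-fold higher (3487, 3630 and 3270 against 1772, 2560 and 2542 normalized counts, adjusted p = 1.16e-05). *DNMT1* was 1.27-fold higher (adjusted p = 2.20e-06), with 8098 as the lowest knockout library and 6948 as the highest control. *TET2* was 1.41-fold higher (adjusted p = 0.00942), again without overlap. The *TET2* call was lost with total-count scaling (adjusted p = 0.137) and without replicate 1 of RB1-knockout DMSO (0.0504), within a range of 0.000281 to 0.137 over 19 alternatives. Without replicate 1 of sgControl DMSO the log2 differences were 0.44 for *TET3*, 0.29 for *DNMT1* and 0.26 for *TET2*, and all 3 still passed. Without replicate 3 of sgControl DMSO, *DNMT3A* and *DNMT3B* passed as well, for a count of 5. The maintenance genes *UHRF1* (log2 difference 0.02, interval -0.28 to 0.32) and *HELLS* (0.03, interval -0.14 to 0.21) were close to equal in the 2 genotypes in DMSO.

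In abemaciclib the genotypes differed for all 9 genes, 8 higher in knockout cells and 1 lower, beside 28.5% of 21529 genes higher and 27.4% lower. *HELLS* was 8.72-fold higher (log2 difference 3.13, SE 0.10, adjusted p = 8.23e-202), *UHRF1* 5.20-fold and *DNMT1* 3.72-fold. *DNMT3B* was 2.96-fold, *TET3* 2.66-fold, *TET2* 2.39-fold and *UHRF2* 1.85-fold higher. *TET1* was 8.82-fold higher (log2 difference 3.14), from counts of 35 to 43 against 3 to 8, and without replicate 1 of sgControl abemaciclib the log2 difference was 3.75. *DNMT3A* was 1.33-fold lower (-0.41, SE 0.13, adjusted p = 0.00261), with 616.1 to 688.9 normalized counts in knockout cells and 853.5 to 899.8 in sgControl cells. With total-count scaling the *DNMT3A* difference was -0.29 and did not pass (adjusted p = 0.0931; 3.0e-07 to 0.0931 over 19 alternatives), and the median of all genes moved to 0.14. These comparisons share groups with those above, so their values are not independent.

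Because the genes fell by unequal amounts, their order of level changed. Levels between genes were compared as normalized counts per kb of the MANE Select transcript. The labels name a full-length kit and the study's methods a 3′ kit, and a 3′ count does not scale with length, which limits this comparison. In sgControl DMSO, *UHRF1* (1450 ± 357 per kb, SD, n = 3) and *DNMT1* (1260 ± 82.8) led with overlapping ranges. *HELLS* (482 ± 35.1) and *UHRF2* (372 ± 35.2) followed, then *TET3* (190 ± 37.3), *TET2* (128 ± 38.7) and *DNMT3B* (121 ± 15.4), where each overlapped the next, then *DNMT3A* (74.9 ± 15.8) and *TET1* (1.62 ± 0.35). The ranges of *TET2* (83.9 to 155) and *DNMT3A* (57.1 to 87.1) also overlapped. In sgControl abemaciclib no neighbours overlapped. *DNMT1* led (391 ± 26), followed by *UHRF1* (268 ± 35), *UHRF2* (222 ± 15.7) and *TET3* (105 ± 7.9). *DNMT3A* (93.4 ± 2.52) and *TET2* (78.3 ± 5.16) came next, then *HELLS* (62.8 ± 8.43) and *DNMT3B* (41.8 ± 4.71), and *TET1* was last (0.513 ± 0.335). In knockout cells the order was the same in DMSO and abemaciclib: *DNMT1* and *UHRF1* overlapping at the top, then *HELLS*, *UHRF2*, *TET3*, *TET2*, *DNMT3B*, *DNMT3A* and *TET1*, with no other overlap. *HELLS*, at rank 3 in the other groups, was at rank 7 in sgControl abemaciclib.

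**Figure D3:**
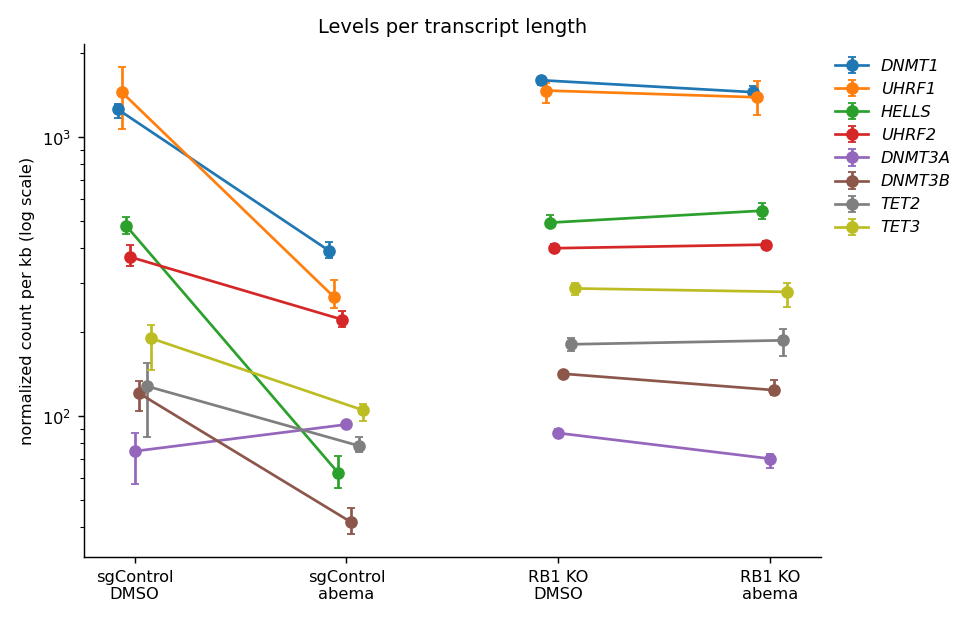
Normalized count per kb of transcript (vertical log axis) in the 4 groups for 8 genes. Points are means and bars span the lowest to the highest of 3 libraries. *TET1*, at 0.513 to 4.37 per kb, is left out. In sgControl cells *HELLS* starts above *UHRF2*, *TET3*, *TET2* and *DNMT3A* and ends below all 4. *DNMT3B* and *TET2* start above *DNMT3A* and end below it, *TET2* with overlap in DMSO. *UHRF1* starts above *DNMT1*, also with overlap, and ends below it. No lines of separate genes change order in knockout cells.

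Ratios of raw counts within a library need no scaling between libraries. The pairs were picked with the values known, and with 3 libraries against 3 the smallest p of the exact permutation test, two-sided, is 0.1, so no ratio could pass 0.05 (14 tests, smallest adjusted p 0.175). In sgControl cells *HELLS* to *DNMT1* went from 0.227 ± 0.00823 (SD, n = 3) in DMSO to 0.0955 ± 0.0139 in abemaciclib. *UHRF1* to *DNMT1* went from 0.843 ± 0.16 to 0.504 ± 0.0327. Both ratios were lower in every treated library. *DNMT3A* to *DNMT3B* went from 1.33 ± 0.122 to 4.89 ± 0.416, and *DNMT3A* to *DNMT1* from 0.106 ± 0.016 to 0.428 ± 0.0245, again without overlap. *TET2* to *DNMT1* went from 0.183 ± 0.0454 to 0.364 ± 0.0119. *TET3* to *TET2* overlapped (1.92 ± 0.257 and 1.68 ± 0.113). Summed counts of *DNMT1*, *UHRF1* and *HELLS* over those of the *TET* genes were 3.98 ± 0.497 in DMSO and 1.64 ± 0.0347 in abemaciclib.

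In knockout cells the ratios moved little. *DNMT3A* to *DNMT3B* was 1.33 ± 0.0214 in DMSO, equal on average to sgControl DMSO, and 1.24 ± 0.088 in abemaciclib. *UHRF1* to *UHRF2* was 4.01 ± 0.307 and 3.69 ± 0.561. *UHRF1* to *DNMT1* was 0.68 ± 0.0738 and 0.706 ± 0.0814, with overlap. *HELLS* to *DNMT1* was higher in every treated library, at 0.223 ± 0.0197 against 0.183 ± 0.0105, opposite to its direction in sgControl cells. *DNMT3A* to *DNMT1* was lower in every treated library (0.0972 ± 0.0047 and 0.0864 ± 0.00389), and *TET2* to *DNMT1* was 0.206 ± 0.015 and 0.233 ± 0.0181. The summed ratio was 3.01 ± 0.0931 and 2.87 ± 0.298.

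**Figure D4:**
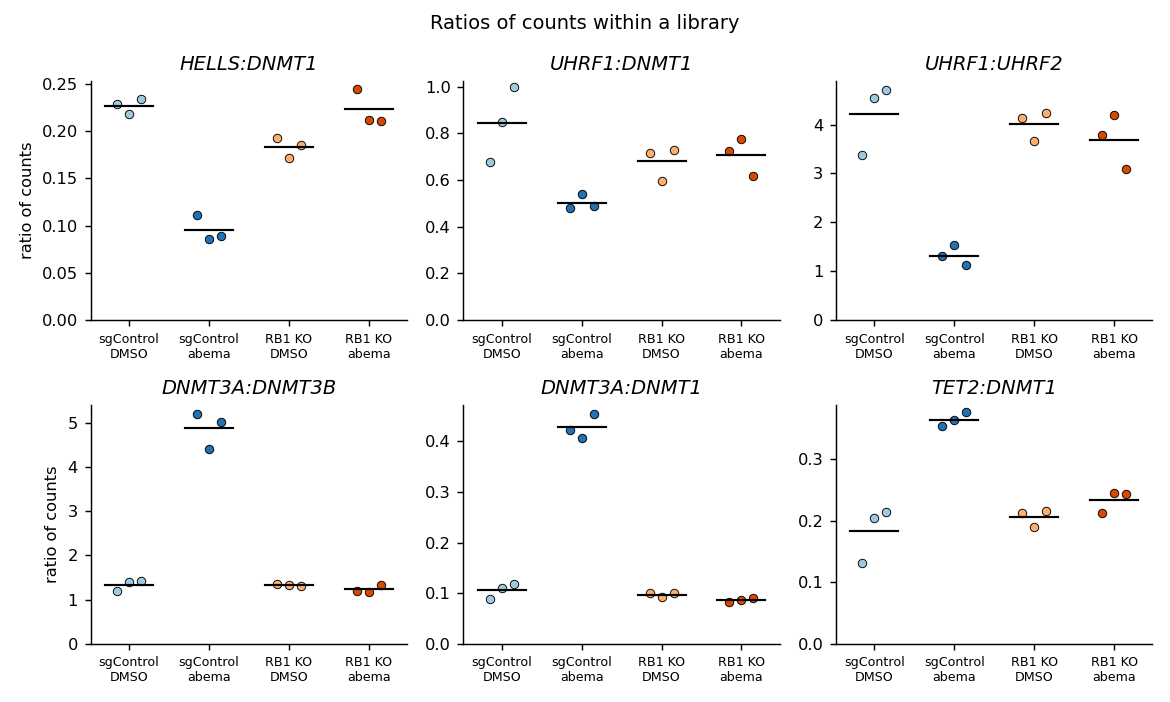
Ratios of raw counts within a library (vertical axes) for 6 gene pairs. Points are libraries and lines are means. *DNMT3A* to *DNMT3B* stands at 4.89 on average in sgControl cells in abemaciclib and between 1.24 and 1.33 in the other groups, and *HELLS* to *DNMT1* is lowest in sgControl cells in abemaciclib.

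Genes that work with these enzymes were grouped into lists by function. Their counts stand beside shares of all genes, which were 25% higher and 24.8% lower for sgControl, 14.9% and 15.1% for the knockout, and 21.1% and 20.3% for the interaction. A share of a small list near these values is not a result about the list. Of 8 maintenance partners, 6 fell in sgControl cells, 0 rose and 2 did not pass, with a median of -2.78. *PCLAF*, a PCNA-binding protein on replicating DNA, fell by 3.47 on the log2 scale, *CDCA7L*, a paralogue of the HELLS activator CDCA7, fell by 2.82, and *PCNA*, the sliding clamp, fell by 2.81. In knockout cells *PCLAF* (0.40) and *CDCA7L* (0.19) rose and *PCNA* fell (-0.19), and 3 of 7 tested partners fell in all. Of 34 S phase genes, all 34 fell in sgControl cells (median -1.94), with *RRM2* at -8.21, *CCNE2* at -6.13 and *TYMS* at -5.67. In knockout cells 4 S phase genes rose, 17 fell and 13 did not pass (median -0.17). The interaction passed upwards for 33 of them. *DNMT1*, *DNMT3B*, *UHRF2*, *TET1*, *TET2* and *TET3* thus fell by less than the median S phase gene, and *UHRF1* and *HELLS* by more, as a description without a test.

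Partners of the de novo enzymes and of TET moved less in sgControl cells. *NSD2* (-1.30) and *NSD1* (-0.52), histone H3K36 methyltransferases whose mark recruits DNMT3 enzymes, fell, and 1 of the 3 tested did not pass. Of 7 genes for TET partners and cofactor supply, 2 rose and 3 fell. *CXXC5*, a CXXC-domain protein linked to TET2, rose by 0.76, and *D2HGDH*, which clears 2-hydroxyglutarate, rose by 0.32. Of 15 genes for excision repair, 3 rose, 7 fell and 5 did not pass. The glycosylase gene *NEIL3* (-5.65), *GADD45A* (-1.26) and the uracil glycosylase gene *UNG* (-1.01) fell most. *TDG*, the glycosylase that removes oxidized methylcytosine, was at -0.59 and passed, a gene added after its value was seen.

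Of 7 readers of methylated DNA, 4 were higher, 2 lower and 1 did not pass in sgControl cells, and no direction is read from so few. *ZBTB4*, a zinc finger reader, rose by 1.37, while *MBD2* (-0.57) and *MBD3* (-0.42) fell. In knockout cells *ZBTB4* rose by 0.28. For methyl donor supply, 3 rose, 6 fell and 2 did not pass of 11 tested. *AHCYL1* (0.79) and *AHCYL2* (0.68), relatives of the hydrolase that removes S-adenosylhomocysteine, rose, and the folate enzyme gene *MTHFD1* (-0.85) fell. Of 5 H3K9 methyltransferase genes, *SUV39H1* (-0.55) and *SUV39H2* (-0.47) fell, *SETDB1* (0.34) rose and 2 did not pass.

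In knockout cells these lists had medians between -0.14 and 0.06. The numbers higher, lower and not passing were 0, 1 and 2 for de novo partners, 0, 1 and 6 for TET partners and cofactor supply, 3, 5 and 7 for excision repair, 2, 2 and 3 for readers, 1, 4 and 6 for methyl donor supply, and 1, 1 and 3 for H3K9 methyltransferases. For the interaction the numbers were 5, 0 and 2 for maintenance partners, 1, 0 and 2 for de novo partners, 1, 3 and 3 for TET partners and cofactor supply, 6, 0 and 9 for excision repair, 1, 3 and 3 for readers, 4, 3 and 4 for methyl donor supply, and 1, 0 and 4 for H3K9 methyltransferases. Between the genotypes in DMSO, 10 S phase genes were higher in knockout cells, 11 were lower and 13 did not pass. Among the named genes, the abemaciclib response in knockout cells did not pass for *NEIL3* (-0.07), *NSD2* (-0.09), *CXXC5* (-0.01) and *AHCYL1* (-0.09), and it passed for *UNG* (-0.25), *MTHFD1* (-0.20) and *SETDB1* (0.19).

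**Figure D5:**
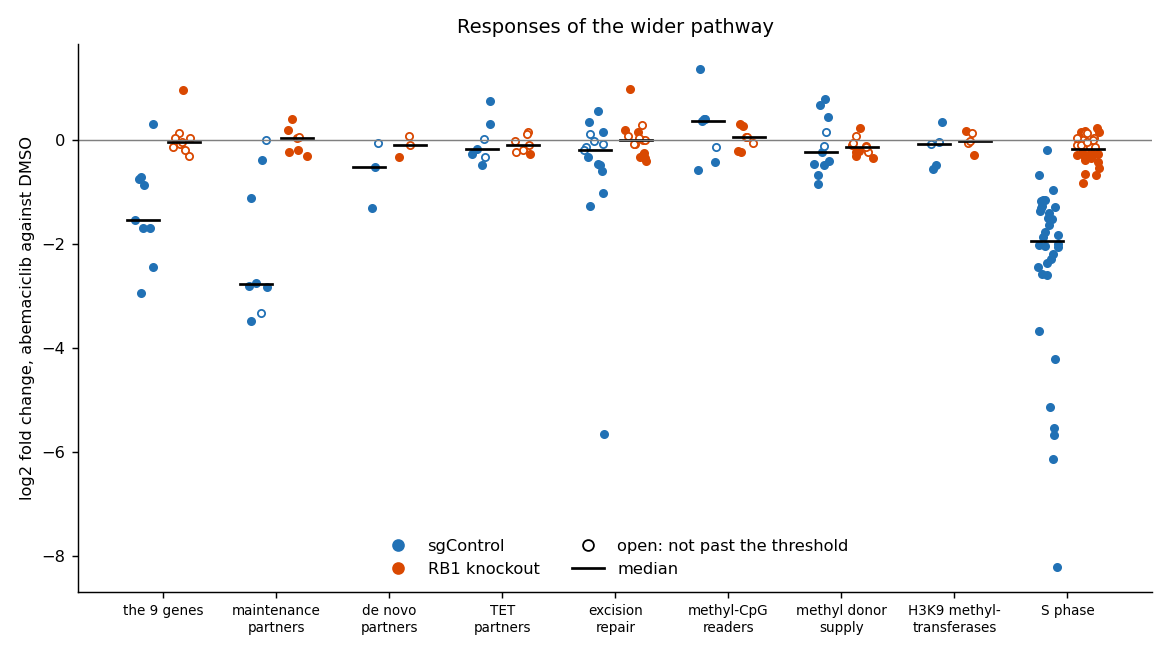
Log2 fold change of abemaciclib against DMSO (vertical axis) for each tested gene of the lists, in sgControl cells (blue) and RB1-knockout cells (orange). Filled points passed the threshold, open points did not, and lines are medians. Medians in sgControl cells are -1.53 for the 9 genes, -2.78 for maintenance partners and -1.94 for S phase genes, and knockout medians lie between -0.17 and 0.06.

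Germline genes, many of which are kept silent by promoter methylation in somatic cells, were read as well, although DNA methylation itself was not measured here. Of 19 such genes, 13 had too few counts for an adjusted p in sgControl cells. Of the other 6, 0 rose, 1 fell and 5 did not pass. The gene that fell, named after its value was seen, was *MAGEA1*, with 19, 9 and 20 raw counts in DMSO and 0, 1 and 1 in abemaciclib, at least 4.48-fold lower against a floor of 3 counts per library. *MAGEA1* was higher in knockout cells, with 60 to 105 raw counts in DMSO and 64 to 90 in abemaciclib. *MAGEA3*, with 2723 to 2889 normalized counts in sgControl DMSO, did not pass in sgControl cells (-0.03). It had 7769 to 8238 normalized counts in knockout DMSO and 7073 to 7191 in knockout abemaciclib. *MAGEA3* shares near-identical sequence with *MAGEA6*, so that reads could be split between them. Between genotypes, 4 germline genes were tested. Higher in knockout cells were 2 in DMSO and 3 in abemaciclib, beside 19.2% and 28.5% of all genes, and 0 were lower. In knockout cells 4 germline genes were tested and *MAEL*, a gene of the piRNA pathway in germ cells, was the 1 that rose, from 4 to 6 raw counts in DMSO to 15 to 22 in abemaciclib, and *MAGEA3* was the 1 that fell (-0.16).

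Genes whose profile over the 12 libraries was nearest to the 3 maintenance genes were found among 11885 genes by the root mean square difference of centred log2 values. Nearest to *DNMT1* were *MAP4K4* (0.0775), a kinase gene, and the replication fork genes *TIPIN* (0.1) and *DONSON* (0.102). Nearest to *UHRF1* were *CENPE* (0.117) and *KIF11* (0.179), which encode mitotic kinesins, and *TICRR* (0.174), which acts in replication initiation. Nearest to *HELLS* were *ANKRD18B* (0.0968), *KIF26A* (0.107) and *DLGAP5* (0.133), the last a mitotic spindle gene. *TIPIN* is also in the S phase list.

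On GRCh38 with GENCODE 44, *DNMT1* lies on chromosome 19 from 10133342 to 10231286 and *UHRF1* on the same chromosome from 4903080 to 4962154. *DNMT3A* (chromosome 2, 25227855 to 25342590) and *TET3* (chromosome 2, 73984910 to 74108176) share a chromosome, as do *HELLS* (chromosome 10, 94545329 to 94613905) and *TET1* (chromosome 10, 68560337 to 68694487). *DNMT3B* lies on chromosome 20 from 32762385 to 32809359, *UHRF2* on chromosome 9 from 6413151 to 6507054 and *TET2* on chromosome 4 from 105145875 to 105279816. Whether counting used strand is not given in the sources used here. Of named genes that overlap them, *S1PR2* within *DNMT1* had at most 322 counts, *TET2-AS1* at most 1 and *COX20P1* within *TET1* at most 10, which is of the order of the *TET1* counts in sgControl abemaciclib.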

How the data were processed

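RNA was sequenced from 12 libraries of ZR-75-1 cells, 3 in each of 4 groups. Per the labels and the study's methods, the authors trimmed reads with BBDuk, aligned them to hg38 with STAR 2.7.5b and deposited raw read counts per gene from featureCounts 2.0.1. The labels name a directional full-length library kit and the methods a 3′ kit, and the strand setting is not given in the sources used here. Of 60656 rows, 44 named no gene and were left out (0% of counts), 1079 of the rest shared a symbol, and 28342 held no count.

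Counts were analysed with DESeq2 1.42.0 in R 4.3.3, as 1 fit of the 4 groups with median-of-ratios size factors, two-sided Wald tests of 5 comparisons and Benjamini-Hochberg adjustment over all genes left by independent filtering (threshold 0.05). Fold changes were not shrunk. Alternatives were edgeR 4.0.16 (quasi-likelihood, TMM), 2 other scalings, a minimum of 10 counts in 3 samples, no independent filtering, only the 2 groups compared, the replicate number as a block, and 12 fits that each left out 1 library. Fits were tested on simulated data. No replicate pair agreed within sampling noise (chi-square of at least 3.40 per gene).

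Samples with the same replicate number deviated together for RB1 knockout against sgControl in abemaciclib (correlations 0.15, 0.26 and 0.11), where the block changed no call among the 9 genes, and not in all pairs of the other comparisons. The labels do not say what a number marks.

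Named genes were the 9 genes, *RB1*, *MKI67* and the 3 nearest profiles of *DNMT1*, *UHRF1* and *HELLS* (log2 of normalized count plus 1). Each of 9 lists gave at most 3 more, those with the largest change in sgControl cells that passed (with a normalized count averaging 100 or more). De novo partners gave only *NSD2* and *NSD1*, and germline genes gave none. Genes and lists were chosen with earlier results of these data known. For 1 gene that this rule names, the values are not reported here.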

Additional observations from a re-analysis of the deposited data

Results flagged for a closer look

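The response to abemaciclib differed between RB1-knockout and sgControl cells by the interaction test (DESeq2, adjusted p under 0.05) for each gene given here, as log2 change in knockout cells minus that in sgControl cells. The 9 methylation genes were at 1.55 (*DNMT1*), -0.62 (*DNMT3A*), 1.34 (*DNMT3B*), 2.36 (*UHRF1*), 0.79 (*UHRF2*), 3.09 (*HELLS*), 2.67 (*TET1*), 0.76 (*TET2*) and 0.82 (*TET3*). The proliferation marker *MKI67* was at 5.97. The S phase genes *RRM2*, *CCNE2* and *TYMS*, named for their large change, were at 7.55, 6.27 and 5.82, beside a median of 1.68 over all 34 S phase genes.

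Among maintenance partners the terms were 3.87 for *PCLAF*, 3.01 for *CDCA7L* and 2.62 for *PCNA*. *NSD2* was at 1.21. Of TET partners and cofactor genes, *CXXC5* was at -0.78 and *D2HGDH* at -0.41. The repair genes *NEIL3*, *GADD45A* and *UNG* were at 5.58, 1.30 and 0.77. The readers *ZBTB4* and *MBD2* were at -1.09 and 0.64. Methyl donor genes were at 0.65 (*MTHFD1*), -0.88 (*AHCYL1*) and -0.92 (*AHCYL2*), and *SUV39H2* at 0.60.

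The genes nearest in profile to *DNMT1*, *UHRF1* and *HELLS* were chosen for that likeness, so their terms follow from the choice. They were 1.57 for *MAP4K4*, 1.39 for *TIPIN*, 1.61 for *DONSON*, 2.45 for *CENPE*, 2.62 for *TICRR*, 2.41 for *KIF11*, 3.12 for *ANKRD18B*, 2.96 for *KIF26A* and 3.41 for *DLGAP5*.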

How the results depend on the processing

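Of 846 values of the 9 genes under the alternatives, 811 kept their direction and their side of the threshold, 17 lost a call, 10 gained one and 8 changed sign, all 8 for values that did not pass. The number of the 9 past the threshold stayed at 9 for the interaction and for the genotypes in abemaciclib when any 1 library was left out, and at 8 to 9 for abemaciclib in sgControl cells. In knockout cells it was 1, with 2 under TMM size factors, 2 with at least 10 counts in 3 samples, 0 without independent filtering, 3 with only the 2 groups compared and 0 to 3 with 1 library left out. The genes that came and went there were *TET1*, *DNMT3A* and *DNMT1*. Between genotypes in DMSO it was 3, and 2 to 5 with 1 library left out. Total counts over the pathway lists stayed within 1.5 times, but the number higher in knockout cells went from 14 to 6 without replicate 3 of RB1-knockout abemaciclib (6 to 15 over libraries left out), and the number lower for the interaction from 9 to 4 with total-count scaling. With the replicate number as a block, the count in knockout cells was again 1, but *DNMT3A* (adjusted p = 0.0331) passed and *TET1* (0.0714) did not, and no other call among the 9 genes changed. Same-numbered libraries deviated together in sgControl cells for 2 of 3 numbers and not in knockout cells. Signs changed between genotypes in DMSO for *UHRF1* (-0.012 with total-count scaling, and -0.16 to 0.20 with 1 library left out) and *HELLS* (-0.015 to 0.091 with 1 library left out). They changed in knockout cells, with 1 library left out, for *UHRF1* (-0.19 to 0.014), *TET2* (-0.022 to 0.13) and *TET3* (-0.100 to 0.035). The rise of *DNMT3A* in sgControl cells was also lost with TMM size factors (adjusted p = 0.0607) and with only the 2 groups compared (0.0904). The cause of these changes was not tested. Depth limits *TET1* and the germline genes, which had few counts.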
